A study of Mus musculus with 22 samples.

Results

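Livers of SOCS1-/-IFNg-/- mice were set against livers of IFNg-/- mice at 4, 12 and 16 h after an injection of interferon-gamma, with 1 array for each genotype and time. These 6 arrays were taken by genotype, agent and time from a series of 22, and the arrays of a time formed a pair. Both genotypes lacked Ifng, the gene of interferon-gamma itself, and received 4 µg of interferon-gamma in 100 µl by the intraperitoneal route, so the cytokine came from the injection in both genotypes. The SOCS1-/-IFNg-/- mice additionally lacked Socs1. The other 16 arrays were, for each genotype, an untreated liver, livers 4 and 12 h after 100 µl of phosphate-buffered saline (PBS), and livers 0.5, 1, 2, 24 and 48 h after interferon-gamma. The labels do not say whether an array held 1 mouse or a pool, and they give no age. The p-values below thus speak of how far these arrays scatter, and part of that scatter may be technical. The difference of a gene is given below as the log2 level in SOCS1-/-IFNg-/- minus the log2 level in IFNg-/- liver at the same time, so that a difference of 1 is a 2-fold higher level.

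Interferon-gamma binds a receptor that activates the kinases JAK1 and JAK2, which phosphorylate STAT transcription factors. STAT dimers bind gamma-activated sites in promoters and switch on a first set of genes, among them the transcription factor IRF1 and SOCS1. SOCS1 then binds and inhibits the JAK kinases, which makes it a negative feedback inhibitor of the signal that induced it. In liver, interferon-gamma is known for inducing guanylate-binding proteins, immunity-related GTPases, antigen presentation genes and chemokines, and mice that lack SOCS1 develop fatal inflammation, with damage to the liver, that loss of interferon-gamma prevents.

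The probe set of Socs1 read 6.59, 6.66 and 6.78 in SOCS1-/-IFNg-/- livers at 4, 12 and 16 h, against 6.89, 6.80 and 6.80 in IFNg-/- livers. Those values were near the untreated levels of 6.68 and 6.73, and the differences were small in all 3 pairs (window mean difference -0.15 ± 0.31 SE, limma adjusted p = 0.87). The genotypes were far apart at 2 h, when the probe set read 6.74 in the SOCS1-/-IFNg-/- and 9.21 in the IFNg-/- liver. That 2 h difference also enters the pooled spread behind this SE and p-value, which therefore do not measure the scatter of the window pairs alone. The probe set of Ifng stayed between 2.18 and 2.61 on all arrays. Hepatocyte markers were high in all 6 livers: the 9 measured of 10 averaged 11.12, 11.24 and 11.11 in SOCS1-/-IFNg-/- livers, against 11.07, 11.30 and 11.34 in IFNg-/- livers. The SOCS1-/-IFNg-/- array at 4 h stood furthest from the other arrays, with a median correlation of 0.9724 across genes, and had the lowest difference between the 3' and 5' control probe sets of Actb (0.326). The SOCS1-/-IFNg-/- array at 12 h had the highest such difference for Gapdh (1.156), and the part of these array properties in the results was not tested.

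The genotypes differed most widely at 4 h. At 4 h, 132 of 8251 genes were at least 1 higher in SOCS1-/-IFNg-/- liver (1.6%) and 17 were at least 1 lower (0.206%). At 12 h the counts were 31 higher (0.376%) and 22 lower (0.267%), and at 16 h they were 29 higher (0.351%) and 29 lower (0.351%). The 2 h pair held 7 genes higher and 8 lower (0.182% in all), and the 24 h pair held 9 higher and 13 lower (0.267%). The excess of higher over lower genes at 4 h was not seen in the 2 h pair and was small at 12 h. Among the pairs without interferon-gamma, 20 genes (0.242%) in untreated, 36 (0.436%) in PBS 4 h and 26 (0.315%) in PBS 12 h livers reached a difference of 1 in either direction, which is the background of this measure.

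Sorting genes by the 3 differences separated a small group from a large one. Only 7 genes were at least 1 higher at 4, 12 and 16 h (0.0848% of 8251), and none was at least 1 lower at all 3 times. By contrast, 114 genes were at least 1 higher at 4 h alone (1.38%), and 11 were at least 1 lower at 4 h alone (0.133%). Applied to the 3 control pairs in order of time, the same sorting gave 3 genes higher and 2 lower in all 3 pairs, 1 higher and 11 lower in the first pair alone, and 19 higher and 7 lower in the second alone. Applied to the 0.5, 1 and 2 h pairs it gave no gene higher and 1 lower in all 3, and 7 higher and 5 lower in the first alone. The count of 114 thus lay above all of these backgrounds, while the 7 and the 11 were of similar size to the control counts, so the 7 are described below by their own courses. Between these groups, 6 genes were at least 1 higher at 4 and 12 h (0.0727%), namely Ifit2, Gbp7, Krt18, Cebpd, Cyp4a14 and S100a8. At 4 and 16 h 3 were higher (0.0364%), Cxcl10, Ccl2 and Plac8, and 1 was lower (0.0121%), G6pc. At 12 and 16 h 7 were higher and 7 lower (0.0848% each), at 12 h alone 10 were higher (0.121%) and 14 lower (0.17%), and at 16 h alone 7 were higher and 20 lower (0.242%). A further 7 genes passed 1 in opposite directions at different times.

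**Figure D1:**
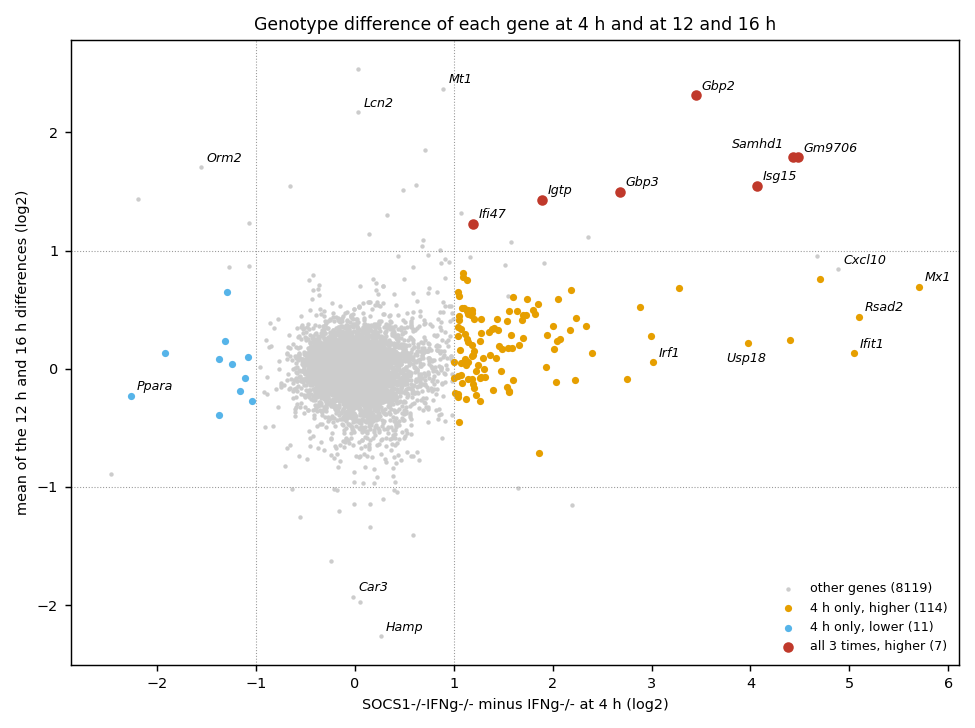
Each point is 1 of 8251 genes, with the genotype difference at 4 h on the x axis and the mean of the 12 and 16 h differences on the y axis, both in log2 units, and dotted lines at -1 and 1. The 7 genes higher at all 3 times lie at the upper right, and the 114 genes higher at 4 h only form a band to the right near 0 on the y axis.

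Across all genes, limma was fitted to the 11 genotype differences of the series, with the spread taken from all groups of pairs because no condition was repeated. The mean difference over 4, 12 and 16 h passed an adjusted p of 0.05 for 370 genes (4.48% of those tested), 259 higher and 111 lower. At 4 h 396 genes passed (4.8%), 313 higher and 83 lower, and at 12 and 16 h together 259 passed (3.14%), 119 higher and 140 lower. The direct test of the 4 h difference against the mean 12 and 16 h difference called 352 genes (4.27%), 266 with the larger value at 4 h (3.22%) and 86 with the smaller (1.04%). The calls shared by 4 h and 12 to 16 h were 46 higher in both, 2 lower in both and 8 opposite in direction. These calls rest on the pairing and on spread borrowed from other times: with the arrays unpaired the counts fell to 41, 142, 14 and 48 for the window, 4 h, 12 and 16 h, and their difference, and the 3 window pairs alone gave 3 genes. The 4 h pair stood alone in its group and was assumed to vary like the other pairs.

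The 7 genes higher at all 3 times were Gbp2, Gbp3, Igtp, Ifi47, Isg15, Samhd1 and Gm9706. Gbp2 and Gbp3 encode guanylate-binding proteins, large GTPases that attack the membranes around intracellular microbes, and both lie on chromosome 3. Igtp (also known as Irgm3) and Ifi47 encode immunity-related GTPases of chromosome 11 with a similar role against vacuolar pathogens. Isg15, on chromosome 4, encodes a ubiquitin-like modifier, and Samhd1, on chromosome 2, encodes a hydrolase that depletes the deoxynucleotides viruses need. Gm9706 is a locus of chromosome 17 annotated as a pseudogene, and its values followed those of Isg15 with r = 0.993 over 22 arrays that share both genotypes and all times, so whether the 2 probe sets read separate transcripts is uncertain.

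The promoters of these genes are shown because interferons are known to act through short elements near the start of their target genes. The bases are the 120 upstream of the annotated start in the RefSeq mouse assembly GRCm38.p6, read 5′ to 3′ on the strand of the gene. Capitals mark matches, on either strand, to the core of the interferon-stimulated response element bound by IRF and STAT-IRF complexes (GAAA, any 2 bases, GAAA), or to TTCNNNGAA, the gamma-activated site bound by STAT dimers. The first 4 genes were higher at all 3 times. They are Gbp2 at chr3:142620543-142620662 on the plus strand, Gbp3 at chr3:142559924-142560043 on the plus strand, Igtp at chr11:58199436-58199555 on the plus strand and Isg15 at chr4:156200819-156200938 on the minus strand. The other 3 were higher at 4 h only and are described further on. They are Irf1 at chr11:53769894-53770013 on the plus strand, Ifit1 at chr19:34640769-34640888 on the plus strand and Rsad2 at chr12:26456453-26456572 on the minus strand. For Gbp3 and Irf1 the start with a match is shown of 2 annotated starts.
Gbp2: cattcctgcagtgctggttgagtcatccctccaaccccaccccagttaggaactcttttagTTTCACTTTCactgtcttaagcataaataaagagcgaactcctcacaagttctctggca
Gbp3: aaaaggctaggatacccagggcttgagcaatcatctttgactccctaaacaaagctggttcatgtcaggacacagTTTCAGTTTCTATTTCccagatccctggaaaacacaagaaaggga
Igtp: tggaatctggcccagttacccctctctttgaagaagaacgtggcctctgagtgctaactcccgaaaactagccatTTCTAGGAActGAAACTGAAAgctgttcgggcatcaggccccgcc
Isg15: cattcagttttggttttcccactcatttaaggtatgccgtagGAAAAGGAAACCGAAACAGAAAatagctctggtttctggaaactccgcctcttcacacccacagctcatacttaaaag
Irf1: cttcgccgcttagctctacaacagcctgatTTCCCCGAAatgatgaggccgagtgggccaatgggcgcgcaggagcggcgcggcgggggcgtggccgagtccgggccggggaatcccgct
Ifit1: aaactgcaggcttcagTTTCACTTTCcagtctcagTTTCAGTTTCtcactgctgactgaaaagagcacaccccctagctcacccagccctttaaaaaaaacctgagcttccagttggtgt
Rsad2: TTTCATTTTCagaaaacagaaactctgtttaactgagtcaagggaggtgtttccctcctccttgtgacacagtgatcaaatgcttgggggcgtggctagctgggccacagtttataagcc
In these stretches Gbp2, Gbp3, Isg15, Ifit1 and Rsad2 held only the response element core, which in Isg15 ran in 3 overlapping copies, and in Gbp3 in 2. Irf1 held only TTCNNNGAA. Igtp held both elements, 2 bases apart.

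Over the longer RefSeq windows, from 250 bases before to 50 bases after a start, 5 of the 6 genes higher at all 3 times that had a window held either motif, and Ifi47 held none. Of the 91 genes higher at 4 h only that had a window, 23 held either motif (25.3%), 12 of them TTCNNNGAA (13.2%) and 12 the response element core (13.2%). Of all 6576 array genes with a window, 11.8% held either motif, 8.5% TTCNNNGAA and 3.89% the response element core. These shares describe short letter matches and say nothing of binding.

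Gbp2 had the largest difference at its closest time. It read 11.34, 10.94 and 10.73 in SOCS1-/-IFNg-/- livers at 4, 12 and 16 h, against 7.89, 8.96 and 8.08 in IFNg-/- livers. The genotypes did not overlap over the window, and the difference was 3.45 at 4 h, 1.98 at 12 h and 2.65 at 16 h. Both genotypes had reached a similar level at 2 h, 9.36 in SOCS1-/-IFNg-/- and 9.73 in IFNg-/- liver, after which Gbp2 went on to a higher level only in the SOCS1-/-IFNg-/- liver. Gbp3 behaved alike, at 9.92, 9.37 and 9.05 in SOCS1-/-IFNg-/- livers, against 7.24, 8.13 and 7.29 in IFNg-/- livers. Its differences were 2.68, 1.24 and 1.76, and at 2 h it read 8.09 in the SOCS1-/-IFNg-/- and 8.06 in the IFNg-/- liver.

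The 2 immunity-related GTPases declined with time in both genotypes from different heights. Igtp read 10.50, 9.54 and 8.15 in SOCS1-/-IFNg-/- livers, against 8.61, 8.03 and 6.80 in IFNg-/- livers, which gave differences of 1.89, 1.51 and 1.35. Ifi47 read 10.70, 9.06 and 7.77 in SOCS1-/-IFNg-/- livers, against 9.51, 7.85 and 6.53 in IFNg-/- livers. The Ifi47 differences of 1.197, 1.21 and 1.24 were nearly constant, so its 2 courses ran parallel from 4 to 16 h. The test of the 4 h against the later difference did not pass for Igtp (0.47 ± 0.38 SE, limma adjusted p = 0.46), Ifi47 (-0.03 ± 0.27 SE, limma adjusted p = 0.955), Gbp2 (1.14 ± 0.73 SE, limma adjusted p = 0.352) or Gbp3 (1.19 ± 0.32 SE, limma adjusted p = 0.0632).

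Isg15, Samhd1 and Gm9706 had a 4 h difference that exceeded the later ones. Isg15 read 11.58, 10.18 and 9.87 in SOCS1-/-IFNg-/- livers, against 7.51, 8.67 and 8.28 in IFNg-/- livers. Samhd1 read 10.44, 8.86 and 7.03 in SOCS1-/-IFNg-/- livers, against 6.002, 6.75 and 5.56 in IFNg-/- livers. In both genes the IFNg-/- level dipped at 4 h and was higher again at 12 h, whereas the SOCS1-/-IFNg-/- level was highest at 4 h. The 4 h difference exceeded the mean of the later ones by 2.52 ± 0.19 for Isg15 (SE, limma adjusted p = 3.04e-05) and by 2.65 ± 0.30 for Samhd1 (SE, limma adjusted p = 0.000583). Gm9706 read 8.81, 7.95 and 7.21 in SOCS1-/-IFNg-/- livers, against 4.32, 5.998 and 5.58 in IFNg-/- livers. A second, dimmer probe set of Samhd1 did not show the difference and gave -0.31, 0.22 and 0.28.

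**Figure D2:**
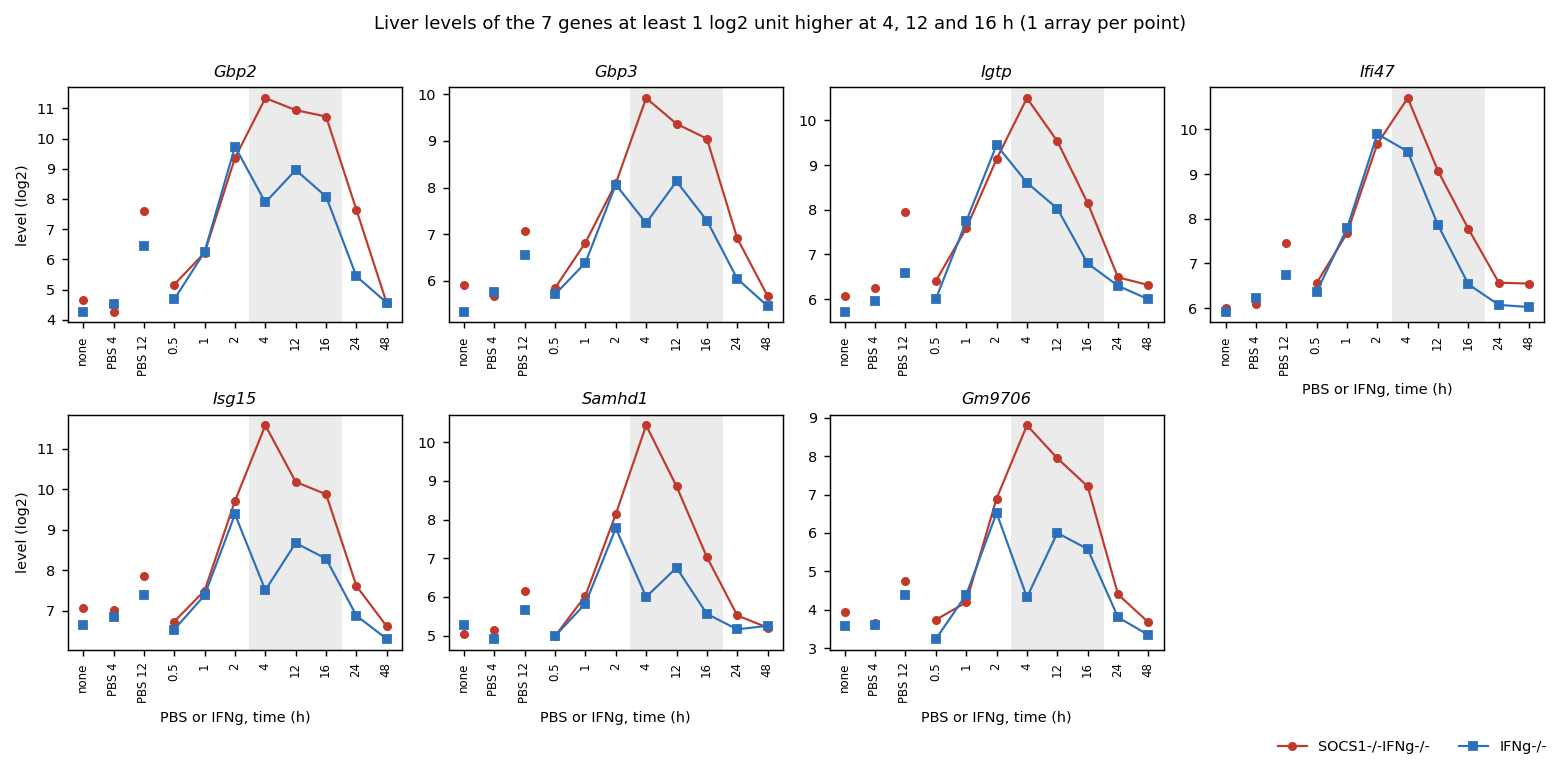
Log2 level of the 7 genes in each liver (1 array per point) against treatment and time, SOCS1-/-IFNg-/- in red circles and IFNg-/- in blue squares, with the 4, 12 and 16 h arrays shaded and the control livers at the left. In every panel the genotypes are close at 0.5 to 2 h and the red points lie above the blue ones at 4, 12 and 16 h.

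The window mean averages the differences that chose these 7 genes, so its values for them are a description. They lay between 1.22 ± 0.13 for Ifi47 and 2.69 ± 0.34 for Gbp2 (SE, limma adjusted p between 0.000707 for Gbp2 and 4e-08 for Isg15). None passed with the arrays unpaired, where adjusted p lay between 0.111 for Samhd1 and 0.573 for Ifi47. With the 3 window pairs alone, the genes that passed were Gbp2 (adjusted p = 0.0263), Igtp (0.0173) and Ifi47 (0.0173).

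The separation of these 7 genes had limits at both ends of the window and in PBS livers. At 2 h their median difference was 0.03, with a range of -0.38 to 0.38, and at 24 h it was 0.60, where Gbp2 alone still differed by more than 1, at 2.20. In PBS livers at 12 h all 7 were already higher in SOCS1-/-IFNg-/- liver, with a median of 0.52, and Igtp (1.35) and Gbp2 (1.16) passed 1. For Gbp2 the PBS 12 h levels were 7.60 in the SOCS1-/-IFNg-/- and 6.43 in the IFNg-/- liver, both above the untreated 4.66 and 4.27. At PBS 4 h the median difference was 0.05. With the PBS difference of the same time subtracted, the 12 h difference was 0.82 for Gbp2, 0.72 for Gbp3, 0.16 for Igtp, 0.50 for Ifi47, 1.03 for Isg15, 1.60 for Samhd1 and 1.59 for Gm9706. The 4 h difference treated in that way was 3.71 for Gbp2 and 1.34 for Ifi47, the smallest of the 7, so at 4 h all 7 stayed above 1 after the subtraction, while at 12 h the 4 GTPases and no other of the 7 came under 1.

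The window mean minus the mean of the 3 control differences passed for 87 genes (1.05%), 67 higher (0.812%) and 20 lower (0.242%). For the 7, the window side of this contrast holds the differences that chose them, so their results are a description. Of the 7, Isg15 (2.03, limma adjusted p = 1.45e-05), Gm9706 (2.44, 3.9e-05), Samhd1 (2.49, 0.000114), Gbp3 (1.56, 0.00498) and Ifi47 (1.00, 0.0252) passed. Gbp2 (2.26, 0.0511) and Igtp (0.92, 0.136) did not. The genes that came nearest to the group of 7 without entering it were Mt1, S100a8 and Lilr4b, whose smallest difference was 0.89, 0.88 and 0.85.

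**Figure D3:**
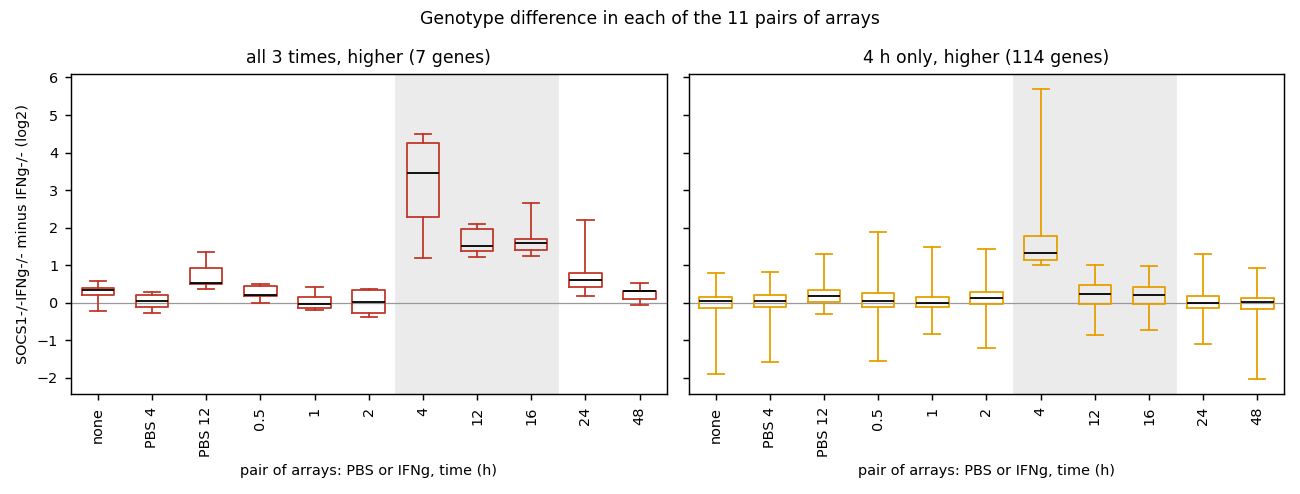
Genotype difference in log2 units for the 7 genes higher at all 3 times (left) and the 114 genes higher at 4 h only (right) in each of the 11 pairs, control pairs at the left and the window shaded. Boxes span the quartiles, black lines mark medians and whiskers reach the lowest and highest gene. The left medians are 3.45, 1.51 and 1.59 at 4, 12 and 16 h, and the right medians are 1.34, 0.24 and 0.20.

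The 114 genes higher at 4 h only were led by antiviral genes that interferon-gamma shares with type I interferon. Mx1, a dynamin-like GTPase that blocks influenza virus, read 9.33, 4.58 and 3.81 in SOCS1-/-IFNg-/- livers at 4, 12 and 16 h, against 3.63, 3.59 and 3.41 in IFNg-/- livers. Its 4 h difference of 5.70 was the highest of the array, and by 12 h most of it had gone, although the 12 h value of 0.99 lay just under the threshold. Ifit1, which binds foreign RNA caps, read 10.75, 6.53 and 6.39 in SOCS1-/-IFNg-/- livers, against 5.70, 6.93 and 5.73 in IFNg-/- livers, so that the order of the genotypes had turned at 12 h. Rsad2 (viperin) read 12.04, 7.74 and 7.58 in SOCS1-/-IFNg-/- livers, against 6.94, 7.74 and 6.70 in IFNg-/- livers.

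These antiviral genes had risen in both genotypes by 2 h, when the levels were already higher in SOCS1-/-IFNg-/- liver, and the differences were wider at 4 h. At 2 h Mx1 read 6.97 in the SOCS1-/-IFNg-/- and 5.55 in the IFNg-/- liver, Ifit1 9.30 and 8.74, and Rsad2 10.80 and 10.31 in the same order. From 2 to 4 h the IFNg-/- levels dropped close to the untreated ones (3.18, 4.96 and 6.13), while the SOCS1-/-IFNg-/- levels climbed further. The 4 h difference exceeded the later mean by 5.01 for Mx1, 4.92 for Ifit1 and 4.66 for Rsad2. These values are a description, because the same differences chose the genes. Cmpk2, a mitochondrial nucleotide kinase, had differences of 4.40, 0.05 and 0.44. Ifit3, a partner of Ifit1, had 4.70, 0.65 and 0.87, and Usp18, which removes Isg15 from proteins and restrains type I interferon signalling, had 3.98, -0.04 and 0.48.

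A transcription factor and a chemokine of the pathway also differed by at least 1 at 4 h only. Irf1, the first-line transcription factor of the interferon-gamma response, read 10.73, 7.64 and 7.51 in SOCS1-/-IFNg-/- livers, against 7.71, 7.71 and 7.33 in IFNg-/- livers. At 2 h it had been alike, 10.38 in the SOCS1-/-IFNg-/- and 10.56 in the IFNg-/- liver, so the genotypes parted between 2 and 4 h. Cxcl9, a chemokine for activated T cells, read 11.34, 11.48 and 11.41 in SOCS1-/-IFNg-/- livers, against 8.06, 10.99 and 10.54 in IFNg-/- livers. For Cxcl9 the smaller 12 h difference lay beside a higher IFNg-/- level at 12 h than at 4 h, while the SOCS1-/-IFNg-/- level was nearly the same at both times. Cxcl10, a chemokine of the same receptor, read 9.42, 4.81 and 4.54 in SOCS1-/-IFNg-/- livers, against 4.54, 4.14 and 3.53 in IFNg-/- livers. Its 16 h difference of 1.01 put it just outside the 4 h only group.

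**Figure D4:**
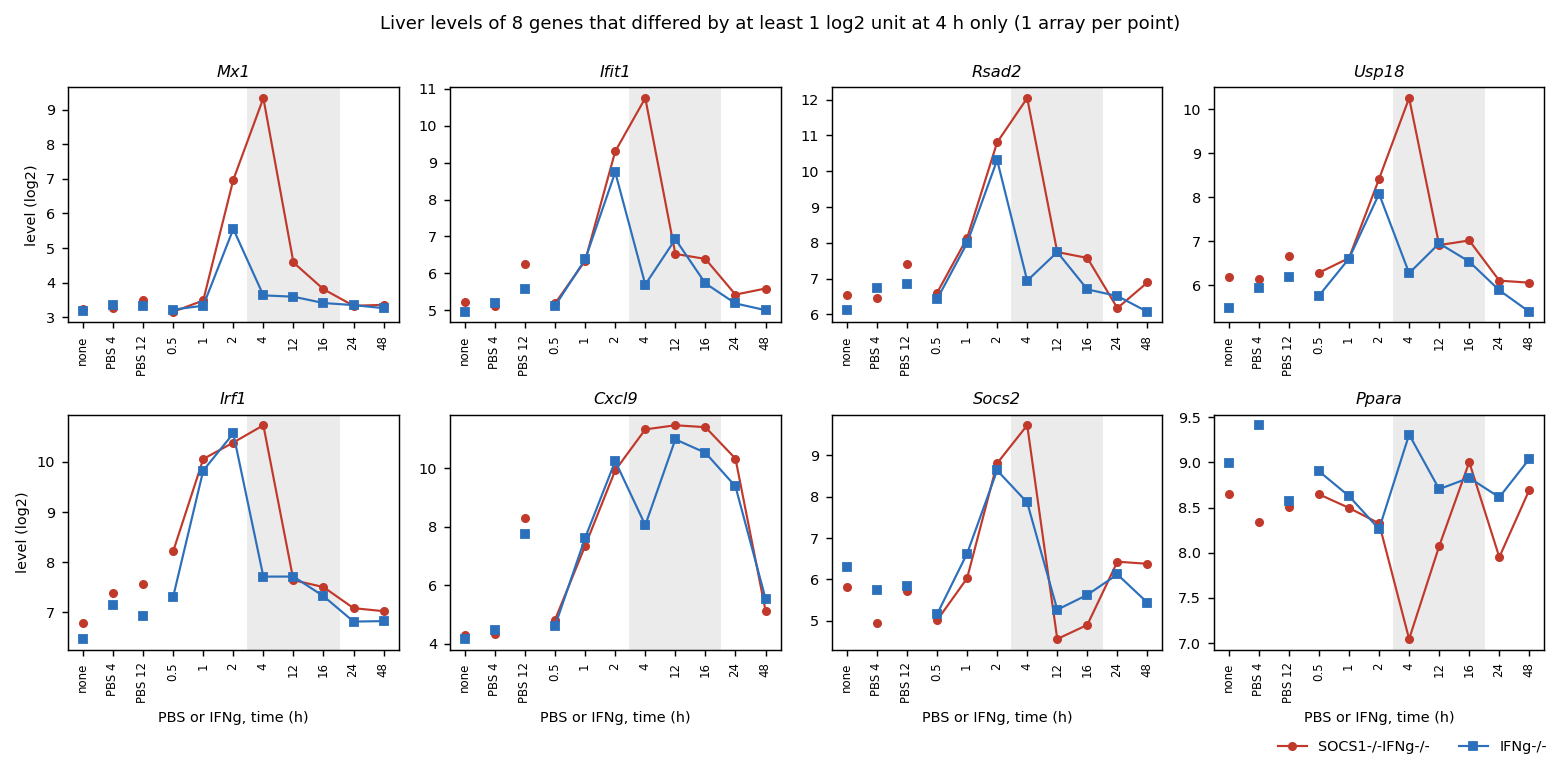
Log2 level of 8 genes that differed by at least 1 at 4 h only (1 array per point), drawn as for the genes higher at all 3 times, SOCS1-/-IFNg-/- in red and IFNg-/- in blue. In Mx1, Ifit1, Rsad2, Usp18 and Irf1 the blue line drops after 2 h and the red line only after 4 h, Cxcl9 stays high in both genotypes from 12 to 24 h, and Ppara is the example of a gene lower at 4 h.

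Levels at 2 h, which did not enter the sorting, divided the 114 genes further, whereas the levels at 4, 12 and 16 h did enter it and are given as a description. Relative to the mean of the untreated and PBS 4 h livers of the same genotype, 48 of the 114 were at least 1 higher at 2 h in SOCS1-/-IFNg-/- and 40 in IFNg-/- liver. At 4 h the counts were 102 in SOCS1-/-IFNg-/- and 7 in IFNg-/- liver, at 12 h 23 and 13, and at 16 h 12 and 5 in that order. In 35 genes both genotypes were at least 1 above baseline at 2 h, as in Mx1, Irf1, Cxcl9, Socs3 and Psmb9. Their median rise was 1.94 in SOCS1-/-IFNg-/- and 1.76 in IFNg-/- liver at 2 h, and 2.52 and 0.62 at 4 h. In 50 genes neither genotype had reached 1 at 2 h and the SOCS1-/-IFNg-/- liver reached it at 4 h, as in Irf7, Ifih1, Casp8 and Fas, where the median at 4 h was 1.40 in SOCS1-/-IFNg-/- and 0.21 in IFNg-/- liver. A further 13 genes had passed 1 at 2 h in SOCS1-/-IFNg-/- liver alone, 5 in IFNg-/- liver alone, and 11 passed it in neither at 2 h nor in SOCS1-/-IFNg-/- liver at 4 h.

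The edge of the 4 h only group is not sharp. Of the 114, 69 were under 0.5 in size at both later times, and Tbrg1 (0.99), Mx1 (0.99) and Actg1 (0.98) had the largest later values (Tbrg1, Actg1 and the genes at the edge are named after their values were seen). The smallest 4 h differences inside were those of Map3k8 (1.00), Gata6 (1.01) and Zbtb16 (1.02), and Csrp1, Eif2ak2 and Ergic1, each at 0.99, fell just outside. As a description, 108 of the 114 passed limma at 4 h and 87 passed the direct test against 12 and 16 h, measures from the same arrays that chose them. The median 4 h difference over all 8251 genes was -0.08.

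The 11 genes lower at 4 h only included Ppara, the nuclear receptor that drives fatty acid oxidation in the fasting liver. Ppara read 7.04, 8.07 and 9.003 in SOCS1-/-IFNg-/- livers at 4, 12 and 16 h, against 9.31, 8.70 and 8.83 in IFNg-/- livers. The 4 h SOCS1-/-IFNg-/- value was the lowest of the series. In PBS 4 h livers Ppara also differed, at 8.34 in SOCS1-/-IFNg-/- and 9.41 in IFNg-/- liver. After interferon-gamma the 4 h difference was -2.26. Its 4 h minus later difference of -2.04 is a description, because the same differences chose the gene. G6pc, the last enzyme of glucose release, was lower at 4 and at 16 h and read 7.12, 9.65 and 9.06 in SOCS1-/-IFNg-/- livers, against 9.58, 10.01 and 10.47 in IFNg-/- livers. Its window mean difference was -1.41 ± 0.28 (SE, limma adjusted p = 0.0135), a call lost without the 4 h pair (-0.89). G6pc was already lower in untreated (-1.01) and 2 h (-1.08) livers, and differed by 0.22 and -0.31 in PBS 4 h and PBS 12 h livers. Beyond the controls its window mean did not pass.

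By role, the interferon-induced GTPases had the highest share of members called at 12 and 16 h among the pathway lists. Of 9 measured members, 6 passed as higher in the window mean (Gbp2, Gbp3, Gbp7, Igtp, Irgm1 and Ifi47) and none as lower, against 3.14% of all genes higher and 1.35% lower. Beyond the controls 3 of the 9 passed as higher, against 0.812% of all genes. The median difference over the 9 was already 0.74 in PBS 12 h livers and was 1.21 at 12 h after interferon-gamma. The median window mean over the 9 was 1.22, and 5 members also passed at 12 and 16 h, against 1.44% of all genes. Gbp7 had differences of 2.35, 1.44 and 0.79, and Irgm1, a regulator of the other immunity-related GTPases, had 2.18, 0.72 and 0.60. The members that did not pass were Irgm2 (window mean 0.50), Iigp1 (0.43) and Gbp2b (0.29), named after their values were seen.

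Antiviral genes shared with type I interferon were the list with the most members called at 4 h. Of 27 measured members, 20 passed as higher at 4 h and none as lower, against 3.79% and 1.01% of all genes, with a median of 1.85 over the 27. At 12 and 16 h 6 members passed as higher, against 1.44% of all genes, and the median was 0.25. The 6 were Isg15, Samhd1, Isg20, Ifit2, Trim30a and Ifih1, of which Ifit2 had differences of 4.67, 1.10 and 0.80. The median 4 h minus later difference was 1.31 over the 27, against -0.10 over all genes.

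Signalling components and feedback inhibitors had fewer members called. Of 18 measured members of the receptor, JAK-STAT and IRF list, 4 passed as higher in the window mean, Irf1, Irf7, Irf8 and Nmi, against 3.14% of all genes, and none as lower. The median over the 18 was 0.14. Irf7, a factor of type I interferon induction, had differences of 1.75, 0.79 and 0.38, and Irf8, a factor of myeloid cells, had 2.24, 0.59 and 0.26. A second, dimmer probe set of Irf7 gave 0.40, 0.35 and 0.31. The kinase Jak2 was higher at 4 h by 0.78 (limma adjusted p = 0.00167) and not at 12 and 16 h (-0.05 and -0.15). Of 13 feedback inhibitors, Usp18, Socs3 and the phosphatase gene Ptpn1 passed as higher in the window mean, against the same 3.14%, with a median of 0.14 over the 13. Beyond the controls 2 of the 18 and 2 of the 13 passed as higher, against 0.812% of all genes. Socs3, a relative of Socs1 that acts mainly on interleukin-6 family receptors, read 8.44, 6.68 and 6.65 in SOCS1-/-IFNg-/- livers, against 7.34, 5.79 and 6.001 in IFNg-/- livers. Its differences were 1.09, 0.89 and 0.65, with a 4 h minus later difference of 0.32. A second probe set of Socs3 with a similar level gave 0.69, 0.96 and 1.11. The place of Socs3 in the 4 h only group thus depends on the probe set. Socs2, a regulator of growth hormone signalling, read 9.72, 4.56 and 4.90 in SOCS1-/-IFNg-/- livers, against 7.86, 5.27 and 5.63 in IFNg-/- livers. Its 4 h difference placed it in the 4 h only group, and it did not pass as lower later (limma adjusted p = 0.0654).

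Chemokines, antigen presentation and enzyme genes changed in a minority of their members, where 3.14% of all genes passed as higher in the window mean and 1.35% as lower. Of 24 chemokines, Cxcl9, Cxcl10, Ccl2 and Ccl7 passed as higher in the window mean and none as lower, and Ccl2, which attracts monocytes, kept differences of 1.58, 0.77 and 1.38. Of 18 class I presentation genes 7 passed as higher, among them the immunoproteasome subunits Psmb8 (differences 1.56, 0.34 and 0.64) and Psmb9 (1.60, 0.89 and 0.33) and the peptide transporter gene Tap1 (1.45, 0.27 and 0.38). A dimmer second probe set of Tap1 did not show the difference. Of 16 class II genes Cd74, the invariant chain, passed (1.18, 0.25 and 0.69), and H2-Aa did not (window mean 0.56 ± 0.14 SE, limma adjusted p = 0.0508). Above the untreated and PBS 4 h mean of its genotype, Cd74 rose by 0.96, 1.34 and 0.97 in SOCS1-/-IFNg-/- livers at 4, 12 and 16 h. In IFNg-/- livers it rose by 0.495, 1.81 and 0.997, so part of its difference was already there without interferon-gamma. Beyond the controls none of the 16 passed. H2-Aa was also higher in untreated SOCS1-/-IFNg-/- liver, at 7.31, against 6.60 in IFNg-/- liver. Among 13 nitric oxide, tryptophan and pterin genes, Wars (tryptophanyl-tRNA synthetase) and Acod1 (the itaconate enzyme) passed as higher. Beyond the controls 2 of the 24 chemokines, 2 of the 18 class I genes and 2 of these 13 passed as higher, against 0.812% of all genes.

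Inflammatory and stress lists gave small counts, again against 3.14% of all genes higher in the window mean. Of 28 NF-kB linked genes 4 passed as higher in the window mean, and of 28 cell death genes 5, among them Daxx (differences 2.34, 0.35 and 0.38) and the death receptor Fas (1.18, 0.73 and 0.17). Casp8, the initiator caspase downstream of Fas, was higher by 1.19 at 4 h, the difference that placed it in the 4 h only group. Of 33 immediate early and stress genes 3 passed as higher in the window, among them Zfp36, which destabilises cytokine mRNAs (2.07, 0.33 and 0.17). Beyond the controls 1 of the 28 NF-kB linked genes and 3 of the 28 cell death genes passed as higher, against 0.812% of all genes. None of the 33 immediate early and stress genes passed there.

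Some genes differed at 12 and 16 h without differing at 4 h. Those at least 1 higher at both of these times and not at 4 h were Mt1, Mt2, Phlda1, Apcs, Cxcl1, Lcn2 and Creld2 (0.0848% of genes), and the control pairs gave 3 such genes. Of these 7, 4 were already at least 1 higher in PBS 4 h livers and 4 in PBS 12 h livers. In the same livers 2 and 1 were at least 1 lower. Mt2 differed by 3.07 and 2.35 after PBS, and Phlda1 by -1.02, -1.16 and -1.38 in untreated, PBS 4 h and PBS 12 h livers. Those at least 1 lower were Papss2, Hamp, Bcl6, Car3, Cyp3a25, Cyp7a1 and Sult5a1, against 1 such gene in the control pairs. Of these 7, 2 were already at least 1 lower in PBS 12 h livers, and 1 was at least 1 higher in PBS 4 h livers. For the genes of both groups, here and below, the 12 and 16 h tests are a description, because the same differences chose them. Lcn2, an iron-sequestering acute phase protein, read 8.05, 10.05 and 10.62 in SOCS1-/-IFNg-/- livers at 4, 12 and 16 h, against 8.02, 8.17 and 8.17 in IFNg-/- livers. The livers were thus alike at 4 h and apart later, and the 12 and 16 h difference was 2.17 ± 0.34 (SE, limma adjusted p = 0.00729). It was carried in part by the 16 h pair, without which it did not pass. In PBS 12 h livers Lcn2 already read 6.79 in SOCS1-/-IFNg-/- and 4.88 in IFNg-/- liver, and its window mean did not pass beyond the controls (0.18, limma adjusted p = 0.951). A second probe set of Lcn2 gave -0.26, 0.24 and 0.30.

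Mt1, a metallothionein that binds zinc, differed as widely after PBS as after interferon-gamma. It read 12.79, 10.93 and 11.82 in SOCS1-/-IFNg-/- livers, against 11.90, 8.96 and 9.06 in IFNg-/- livers. In PBS 4 h livers Mt1 read 11.09 in SOCS1-/-IFNg-/- and 8.02 in IFNg-/- liver, a difference of 3.08 that exceeded every difference in the window. Mt1 was also 1 of the 3 genes at least 1 higher in all 3 control pairs, with Cyp4a10 and Cyp4a14.

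Acute phase proteins, which hepatocytes secrete in response to interleukin-6 and interleukin-1, were the list with the most members called late. Of 29 measured, 7 passed as higher and 1 as lower at 12 and 16 h, against 1.44% and 1.7% of all genes. Beyond the controls the window mean passed for 2 of the 29, A2m and Il1rn, both higher at 4 h only, against 0.812% of all genes, and the median over the 29 was -0.04. At 4 h the median difference was 0.10 over the 29, against -0.08 over all genes, and Saa3 and Orm2 turned direction between the times. Orm2, orosomucoid, read 8.27, 10.87 and 10.79 in SOCS1-/-IFNg-/- livers, against 9.82, 9.51 and 8.75 in IFNg-/- livers. Saa3, a serum amyloid A gene, read 7.04, 9.27 and 10.58 in SOCS1-/-IFNg-/- livers, against 9.23, 8.89 and 8.09 in IFNg-/- livers. Both were lower at 4 h and higher later in SOCS1-/-IFNg-/- livers, which is how they were sorted. As a description, the 4 h minus later difference was -3.26 for Orm2 and -3.62 for Saa3.

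Hamp, the gene of the iron hormone hepcidin, was the 1 acute phase gene that passed as lower at 12 and 16 h. It read 10.11, 6.76 and 8.70 in SOCS1-/-IFNg-/- livers, against 9.85, 9.52 and 10.46 in IFNg-/- livers, and was lower at 12 and 16 h by 2.26 ± 0.29 on the log2 scale (estimate -2.26, SE, limma adjusted p = 0.00228). This call was lost without the 12 h pair. Car3, carbonic anhydrase 3 of hepatocytes, read 11.19, 9.08 and 9.08 in SOCS1-/-IFNg-/- livers, against 11.22, 11.02 and 11.001 in IFNg-/- livers. Every other Car3 value of the series lay between 10.57 and 11.66, so the 12 and 16 h SOCS1-/-IFNg-/- livers stood alone (-1.93 ± 0.11 SE, limma adjusted p = 6.74e-06). Papss2, which makes the sulphate donor for conjugation, read 6.99, 6.23 and 5.65 in SOCS1-/-IFNg-/- livers, against 6.41, 7.37 and 7.32 in IFNg-/- livers (-1.41 ± 0.18 SE at 12 and 16 h, limma adjusted p = 0.00228). The calls of Papss2 and of Cyp3a25, described next, were lost without the 16 h pair. For Hamp, Car3, Papss2 and Cyp3a25 these tests are a description, because the same 12 and 16 h differences chose the genes.

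**Figure D5:**
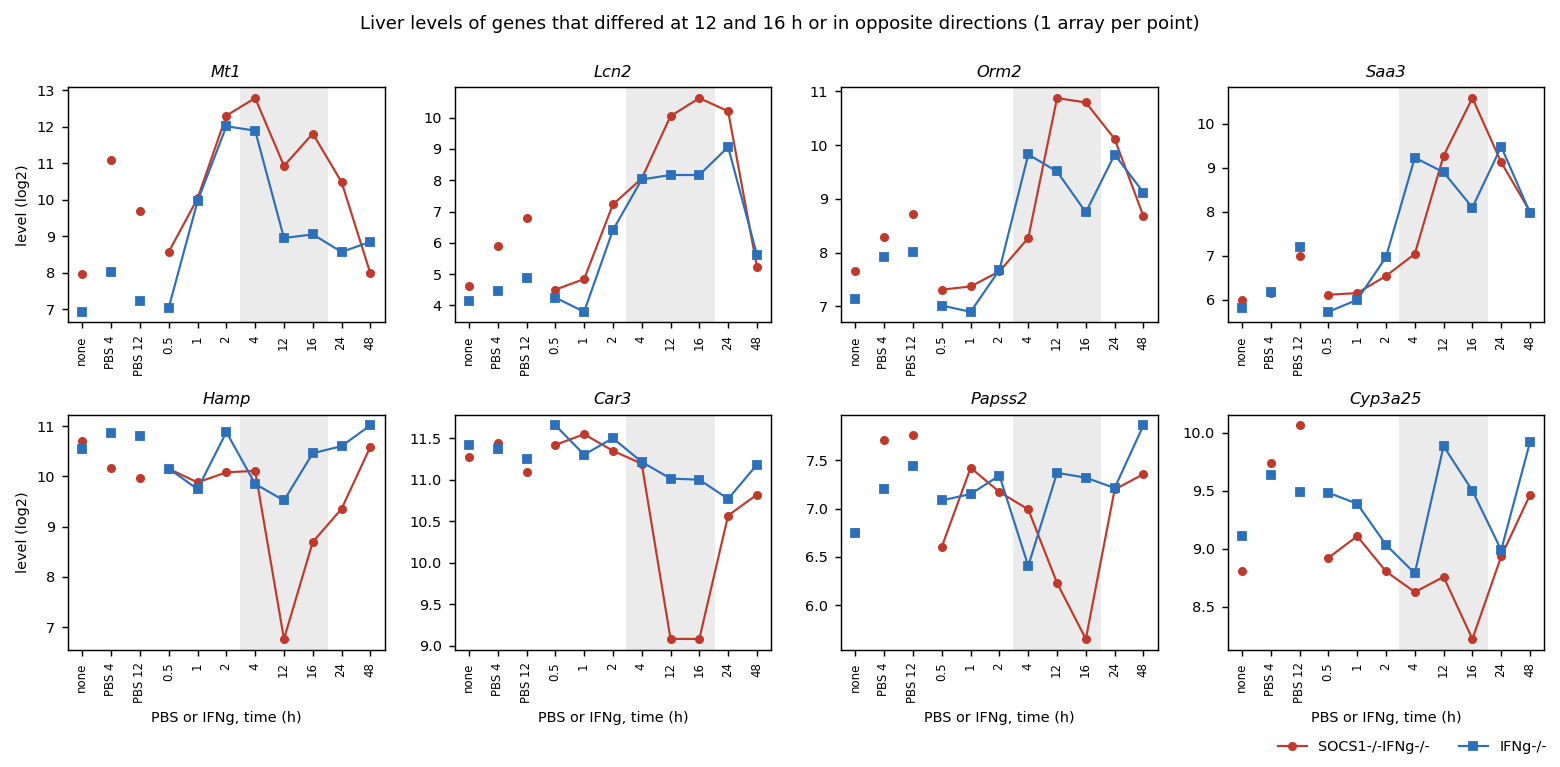
Log2 level of 8 genes that differed at 12 and 16 h or in opposite directions over the window (1 array per point), SOCS1-/-IFNg-/- in red and IFNg-/- in blue, control livers at the left. Lcn2, Orm2 and Saa3 cross or part after 4 h, Mt1 already differs in the PBS livers, and Hamp, Car3, Papss2 and Cyp3a25 are lower in the red points at 12 and 16 h.

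Some genes of bile acid and drug metabolism were lower at 12 and 16 h. Of 12 measured bile acid genes 4 passed as lower at 12 and 16 h and none as higher, against 1.7% and 1.44% of all genes, with a median of -0.41. Abcb4, the phospholipid exporter of the canaliculus, had differences of -0.69, -0.54 and -0.81, and Cyp8b1, which sets the cholic acid share, had -0.14, -0.60 and -0.96. Cyp7a1, the rate-limiting enzyme, had -0.24, -1.204 and -2.05 but did not pass (-1.63 ± 0.54 SE, limma adjusted p = 0.141), and its PBS 4 h values differed the other way, 8.20 in SOCS1-/-IFNg-/- and 5.54 in IFNg-/- liver. Of 18 drug-metabolising cytochrome P450 genes 5 passed as lower at 12 and 16 h, among them Cyp3a25 (differences -0.16, -1.13 and -1.28) and Cyp1a2 (0.04, -0.54 and -0.70). Beyond the controls the window mean, which includes the 4 h pair, passed for none of the 12 bile acid genes. It passed as lower for 1 of the 18 P450 genes, against 0.242% of all genes.

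The remaining metabolic lists had few members called. The median window difference was -0.07 over 14 lipogenesis and -0.07 over 17 cholesterol synthesis genes. Of 22 fatty acid oxidation genes Ppara and Hadh passed as lower, of 13 gluconeogenesis and fasting genes G6pc, and of 15 clock genes Clock, Dbp and Tef, against 1.35% of all genes. When each of the 11 pairs was left out in turn, the calls of Hadh, Dbp and Tef were lost in 6, 6 and 10 of the fits. Beyond the controls no member of any of these lists passed.

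Most markers of macrophages, monocytes and neutrophils did not pass the test of the window mean. Of 11 measured Kupffer cell and macrophage markers 8 did not pass, and the median difference over the 11 was 0.02 for the window mean and -0.14 for the mean of 12 and 16 h. The summed linear level of the 11 was 2033, 1353 and 1420 in SOCS1-/-IFNg-/- livers at 4, 12 and 16 h, against 1659, 1768 and 1513 in IFNg-/- livers. Of these, Clec4f, Cd5l and Msr1 passed as lower in the window mean, against 1.35% of all genes. Beyond the controls none of the 11 passed. The call of Clec4f was lost without the 12 h or the 16 h pair, and that of Msr1 without any 1 of 4 pairs. Cd5l, a macrophage-secreted protein, read 6.97, 5.69 and 5.29 in SOCS1-/-IFNg-/- livers, against 6.97, 6.46 and 6.81 in IFNg-/- livers. Its call as lower at 12 and 16 h was lost without the 16 h pair. Of 11 monocyte and neutrophil markers 9 did not pass, and the median difference was 0.02 for the window mean and 0.14 for the mean of 12 and 16 h. S100a8 and S100a9 passed as higher in the window mean, against 3.14% of all genes, and S100a8 read 5.45, 5.69 and 4.79 in SOCS1-/-IFNg-/- livers, against 4.38, 3.93 and 3.92 in IFNg-/- livers. The summed level of the 11 was 689, 750 and 722 in SOCS1-/-IFNg-/- livers, against 751, 667 and 645 in IFNg-/- livers. In whole liver, fewer cells of a type and less RNA per cell cannot be told apart, and the part of these cells in the interferon-induced genes was not tested.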

How the data were processed

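Biotin-labelled liver RNA was measured on Affymetrix mouse arrays, 22 in all. The authors deposited 1 normalized log2 value for each probe set and array. The affy package is named per the submitters' processing notes, and the normalization method is not given in the sources used here. Of 12488 probe sets, 66 controls were left out, 10833 had 1 gene symbol, 396 several and 1193 none, from the platform annotation. Each of 8251 genes was read from its probe set with the highest mean (2073 had more than 1). Array medians lay between 5.64 and 5.71.

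Arrays of the same agent and time formed 11 pairs. limma 3.58.1 (R 4.3.3) was fitted to the 11 differences, SOCS1-/-IFNg-/- minus IFNg-/-, with pairs grouped as controls, 0.5 to 2 h, 4 h, 12 and 16 h, and 24 and 48 h (6 residual degrees of freedom), and Benjamini-Hochberg adjustment over all genes at 0.05. The labels pair arrays by agent and time, not by animal. Deviations of the 2 arrays of a pair correlated with r between 0.129 and 0.747. Exact tests over 3 against 3 arrays cannot go below p = 0.1, nor sign flips of 3 pairs below 0.25. On simulated data for the 4 h minus later comparison over 8251 genes, 91% of changes of 1 were recovered. The simulated errors were independent and normal, with the fitted spread of each gene in every pair. The figure thus assumes that the 4 h pair varies like the others and cannot test it.

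Named genes were the deleted genes, up to 12 higher and 8 lower in the groups that differed at all 3 times or at 4 h only, up to 5 by size in each other group by time, up to 4 members of each list by window difference plus any that passed a limma threshold, and a few pathway genes always named. The members and lists were chosen with earlier results of these data known. Promoter bases came from RefSeq (GRCm38.p6). Alternatives were other thresholds, left-out pairs, unpaired arrays, control subtraction, weights, filters and normalization. Tables were handled in Python 3.11.15 with pandas 2.3.3 and numpy 2.4.6.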

Additional observations from a re-analysis of the deposited data

Results flagged for a closer look

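The genotype difference at 4 h departed from the mean of the 12 and 16 h differences in 352 genes by limma's direct test of that change (Benjamini-Hochberg adjusted p under 0.05). The values below are the 4 h difference minus the later mean on the log2 scale, and the 4 h value rests on 1 pair. For genes named from a group by time, the same differences chose them, so their values are a description.

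Among the genes described, the values of at least 2 were those of Mx1 (5.01), Ifit1 (4.92), Rsad2 (4.66), Cmpk2 (4.16), Cxcl10 (4.04), Ifit3 (3.94), Usp18 (3.76), Ifit2 (3.72), Upp2 (3.35), Irf1 (2.96), F3 (2.83), Mx2 (2.72), Gm9706 (2.69), Cited2 (2.66), Samhd1 (2.65), Cxcl9 (2.60), Socs2 (2.58), Hamp (2.52), Isg15 (2.52), Trim30a (2.36) and Znfx1 (2.27). Smaller positive values belonged to Papss2 (1.99), Daxx (1.98), Car3 (1.91), Zfp36 (1.82), Irf8 (1.81), Irgm1 (1.52), Sult5a1 (1.49), Casp8 (1.32), Gbp7 (1.24), Irf7 (1.16), Tap1 (1.13), Psmb8 (1.07), Ccl7 (1.07), Psmb9 (0.99), Acod1 (0.98), Jak2 (0.88) and Clec4f (0.81). Sult5a1 was named after its values were seen. For Hamp, Car3, Papss2, Sult5a1 and Clec4f a positive value goes with a lower level in SOCS1-/-IFNg-/- livers at 12 and 16 h. Socs2 (-0.71 and -0.73) and, slightly, Jak2 (-0.05 and -0.15) were also lower at those times, and Upp2 turned direction over the window.

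The negative values, with a 4 h difference below the later mean, were those of Saa3 (-3.62), Orm2 (-3.26), Creld2 (-2.20), Etfbkmt (-2.05), Ppara (-2.04) and Ak4 (-0.97). No explanation of these changes with time was tested.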

How the results depend on the processing

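Counts of called genes depended most on the pairing, on how the spread was estimated and on single pairs. Without the pairing (no replicate block), 41 genes passed for the window mean, 1 beyond the controls, 14 at 12 and 16 h, 142 at 4 h and 48 for 4 h minus later. The 3 window pairs alone gave 3 genes and the 12 and 16 h pairs alone gave 111. Without the 4 h pair the window mean covered 12 and 16 h alone. It then called 259 genes, 119 higher and 140 lower, of which 163 were among the 370 of the full fit. Leaving out 1 pair at a time gave 259 to 381 genes for the window mean and 343 to 411 at 4 h. Beyond the controls it gave 25 (without PBS 4 h) to 127 (without 12 h), with 43 without the untreated and 49 without the 4 h pair. At 12 and 16 h it gave 79 (without 16 h) to 291 (without PBS 4 h), with 83 without the 12 h pair. For 4 h minus later it gave 184 (without 16 h) to 380 (without PBS 4 h). Trend and robust settings, pair weights, averaged probe sets, a filter on low genes and added quantile normalization kept these 5 counts within 1.5 times.

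With a threshold of 0.6, 28 genes were higher and 1 lower at all 3 times, and 255 higher and 42 lower at 4 h only. With 1.5 these were 3 higher at all 3 times, and 53 higher and 3 lower at 4 h only. Requiring under 0.5 at the later times left 69 higher and 2 lower at 4 h only. Subtracting the nearest PBS difference, an alternative added after seeing the data, left 4 higher at all 3 times, 2 of them among the 7, and gave 35 lower at 4 h only. Subtracting the mean control difference left 5 higher, 4 of them among the 7, and 2 lower.

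The window means of 3 genes that turned direction reversed without the 16 h pair: leaving out a pair gave -0.91 to 1.43 for Saa3, -1.16 to 0.98 for Upp2 and -0.094 to 1.704 for Orm2. Over 167 results for named genes, 2552 alternatives kept direction and side of the threshold, 265 lost the call, 55 gained it and 3 reversed. The cause was not tested. With 1 array per genotype and time, the number of arrays limits the precision.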
